A study of Sus scrofa with 8 samples.

Results

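Muscle contracts through myosin, a motor built from heavy chains that pull on actin and from light chains that clamp the neck of each heavy chain. Each chain comes as several isoforms from separate genes, and skeletal, cardiac and smooth muscle use different sets of them. Here 9 myosin genes were followed in pig embryos: the heavy chains MYH3, MYH7 and MYH8 and the light chains MYL1, MYL2, MYL3, MYL4, MYL7 and MYL9, taken by name from the gene list. Of these, 8 had a row among the 21301 genes and were measured in all 8 libraries, and MYL7 was not analysed here.

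As background, MYH3 is the embryonic and MYH8 the perinatal heavy chain of skeletal muscle, and MYH7 is the slow or beta heavy chain of slow fibres and heart ventricle. MYL1 is the essential light chain of fast skeletal fibres, MYL3 that of slow fibres and ventricle, and MYL4 that of embryonic muscle and the atrium. MYL2 is the regulatory light chain of slow fibres and ventricle, and MYL9 is the regulatory light chain of smooth muscle and non-muscle cells. Myogenic progenitors that carry PAX3 and MYF5 switch on MYOD1 and then MYOG, and sarcomere genes follow as myoblasts become myocytes.

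Single-cell RNA was measured with 10x Genomics 3' chemistry in somites at embryonic days (E) 16, 18 and 21 and in myotome at E28. ZZ embryos were Tibetan pigs and DZ embryos were a cross of Duroc and Tibetan pigs, with 1 library for each breed and stage, so that stage and tissue change together at E28. Each library was a pool of embryos of a single sow, and no pools shared both breed and stage. The p-values therefore measure a spread between pools, or between gates within pools, that also holds differences of stage or breed. After filtering, 5436 to 10956 cells and 39852689 to 57568710 unique molecular identifiers (UMIs, counted mRNA molecules) were kept in a library, and the median cell held 3405 to 6160.5 UMIs. Of the barcode sequences, 678 occurred in more than 1 library, and no pair of libraries shared more than 38.

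Cells were sorted in silico by gates, that is, by UMIs of marker genes that included no myosin of the list. The skeletal myocyte gate asked for 2 of MYOG, MYMK, CHRNA1, CHRND and CHRNG, and the cardiac gate asked for TNNT2 with 2 of MYBPC3, NKX2-5, TNNI3, TBX20 and RYR2. A cell that passed 2 gates was left out of both, apart from 2 pairs of gates (ACTA2 with fibroblast, sclerotome with cartilage). A MYOD1 myoblast that also passed the skeletal myocyte gate was counted as a skeletal myocyte, unless it passed a further gate. In ZZ the skeletal myocyte gate held 0, 47, 220 and 346 cells at E16, E18, E21 and E28, and in DZ it held 2, 79, 191 and 746. The cardiac gate held 14 and 73 cells at E16 and 24 and 7 at E18, and none in the 4 later libraries, although every library before E28 is labelled somite. Levels are CPM, the UMIs of a gene scaled to a common total of UMIs in the gate and library. Some markers outside the gates matched these names and others did not. TNNC2, the fast skeletal troponin C, was at 782 to 1356 CPM in skeletal myocytes and at 6.08 to 11.2 CPM in cardiac cells. GATA4, a cardiac and lateral mesoderm factor, was at 86.9 to 128 CPM in cardiac cells and at most 0.702 CPM in skeletal myocytes. TNNT1 and MYLPF went the way of TNNC2, and TBX5 and HAND2 the way of GATA4. CKM stood at 2.52 to 16.2 CPM in skeletal myocytes and 18.2 to 19.6 in cardiac cells. The values of ACTA1, DES, ACTC1 and TNNC1 overlapped between the 2 gates, and SMPX was higher in cardiac cells. A UMI of this assay counts 1 transcript end, so levels of different genes were set side by side with no correction for length.

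The 3 heavy chain genes are close relatives, which matters for how their reads were told apart. On the RefSeq annotation of Sscrofa11.1, MYH3 lies at chr12:55351152-55373236 and MYH8 at chr12:55135651-55166983, both on the minus strand and 184168 bases apart. MYH7 lies at chr7:75650841-75672908 on the plus strand, with MYH6, the atrial alpha heavy chain, starting 4757 bases further on. Over the coding sequence, MYH3 was 81.0% identical to MYH8 and 77.6% identical to MYH7. A 3' assay reads the end of the transcript, and over the last 300 transcript bases the identity was 61.7% and 58.6%. The row named MYH7 carries a gene identifier (ENSSSCG00000002029) that a newer gene table names MYH6. The 2 genes were 91.1% identical over the coding sequence but 45.3% over the last 300 bases, and no separate MYH6 row was used here. Values given for MYH7 may therefore hold transcripts of either gene.

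The last 90 coding bases of the 3 heavy chains are shown because they lie at the end that the assay reads and show how far the isoforms differ there. Capitals mark the bases that differ from MYH3 in the alignment, which are 23 in MYH8 and 22 in MYH7. Each row holds the gene's own last 90 bases, so the rows are not in register. MYH3 bases that are absent from MYH8 or MYH7 are neither marked nor counted.
MYH3: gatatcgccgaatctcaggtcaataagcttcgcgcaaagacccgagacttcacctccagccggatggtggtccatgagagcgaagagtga
MYH8: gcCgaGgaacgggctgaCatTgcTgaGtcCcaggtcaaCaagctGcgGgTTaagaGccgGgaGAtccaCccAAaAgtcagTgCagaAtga
MYH7: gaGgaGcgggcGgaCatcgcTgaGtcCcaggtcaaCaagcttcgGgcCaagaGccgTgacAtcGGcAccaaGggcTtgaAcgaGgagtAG

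The light chain genes lie apart from each other, with MYL1 at chr15:113038083-113051315, MYL2 at chr14:32205953-32213848, MYL3 at chr13:29730271-29735616, MYL4 at chr12:16774655-16792213 (all on the minus strand) and MYL9 at chr17:39788165-39795240 on the plus strand. MYL3 and MYL4 were 78.7% identical over the coding sequence, MYL1 was 57.0% and 57.7% identical to them, and MYL2 was 62.1% identical to MYL9. Gaps counted as differences. The MYL1 model had 453 coding bases against 591 in MYL3 and 594 in MYL4, so its values are lowered by length. Over the last 300 transcript bases none of the 4 measured light chain pairs compared passed 46.2%.

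Promoters are shown because the genes were found in different cells. In the 300 bases from 250 before to 50 after the annotated start, both strands were searched for E-boxes (CANNTG, the site of MYOD1 and its relatives), for the MEF2 site and for the CArG box of serum response factor. An E-box was found in 7 of the 8 promoters, and 68.2% of all 20664 pig promoters hold one. The MEF2 site was found in MYL1 (background 3.0%) and the CArG box in MYL3 and MYL9 (background 1.5%). The motif TATAAA was found in MYH3 (background 11.6%), and neither CAGCTG, a form of the E-box (background 16.3%), nor AGATAA (background 9.9%) was found in any of the 8. The 3 promoters with the rarer motifs are shown with every E-box, MEF2 site and CArG box in capitals. They are MYL1 (chr15:113051266-113051565, minus strand), MYL3 (chr13:29735567-29735866, minus strand) and MYL9 (chr17:39787915-39788214, plus strand), from RefSeq on Sscrofa11.1.
MYL1: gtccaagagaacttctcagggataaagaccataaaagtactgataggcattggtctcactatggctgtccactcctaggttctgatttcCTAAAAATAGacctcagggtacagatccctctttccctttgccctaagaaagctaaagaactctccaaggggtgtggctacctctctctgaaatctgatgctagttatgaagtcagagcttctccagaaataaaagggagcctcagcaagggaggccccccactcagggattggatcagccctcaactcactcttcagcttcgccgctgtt
MYL3: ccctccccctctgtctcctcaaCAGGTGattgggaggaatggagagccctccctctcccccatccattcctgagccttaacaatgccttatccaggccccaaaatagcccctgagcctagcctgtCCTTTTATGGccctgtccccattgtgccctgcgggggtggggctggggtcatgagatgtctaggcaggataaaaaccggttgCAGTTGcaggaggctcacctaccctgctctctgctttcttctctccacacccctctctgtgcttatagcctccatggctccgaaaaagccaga
MYL9: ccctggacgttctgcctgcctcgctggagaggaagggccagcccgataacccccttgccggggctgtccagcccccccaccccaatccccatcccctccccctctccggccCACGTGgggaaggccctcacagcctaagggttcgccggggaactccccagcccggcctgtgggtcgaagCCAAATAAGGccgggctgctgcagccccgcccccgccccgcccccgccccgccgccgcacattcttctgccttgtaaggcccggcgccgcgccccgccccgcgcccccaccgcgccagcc

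The first question was which myosins rose or fell as somites developed. In whole libraries MYH3, MYH8, MYL1 and MYL2 rose, MYH7, MYL3 and MYL9 fell, and MYL4 was not called. All values here are CPM over all kept cells. MYH3 stood at 0.627 (ZZ) and 1.25 (DZ) at E16, 8.60 and 13.0 at E18, 115 and 78.4 at E21, then 107 and 260 at E28, so that all 4 late libraries lay above all 4 early ones. MYH8 stood at 0.0696 to 0.226 in the 4 early libraries and at 12.0 to 110 in the 4 late ones. MYL1 stood at 3.1 to 6.86 in early and 65.0 to 214 in late libraries. The early and late values did not overlap for MYH3, MYH8 or MYL1. The share of all genes without such overlap is not given, here or below, so these statements only describe the values.

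MYH7 ran the other way, with 103 and 177 CPM at E16, 53.2 and 30.5 at E18, 17.1 and 14.0 at E21, then 5.23 and 14.7 at E28. MYL9 stood at 187 to 229 CPM in the early libraries and at 61.2 to 105 in the late ones, again without overlap. MYL4 stood highest at E16, at 138 and 260 CPM, and in the DZ library of E28, at 161, with 36.0 to 62.6 in the other 5, the ZZ library of E28 among them. The late and early groups of MYL4 overlapped.

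The test of the 4 late against the 4 early libraries was edgeR's quasi-likelihood test on summed UMIs with breed as a term. Its adjusted p was corrected over all genes, and a gene was called below 0.05. Of the 8 myosins 7 were called (4 up and 3 down), against 34.4% of all genes tested. The largest change was that of MYH8, up by 7.72 ± 0.91 (log2 fold change and an approximate standard error, adjusted p = 0.0022), and MYL1 rose by 4.21 ± 0.46 (adjusted p = 0.00197). Here and below, that error is the size of the log2 fold change divided by the square root of the test's F statistic. MYH3 rose by 4.43 ± 0.90 (adjusted p = 0.00902) and MYL2 by 2.06 ± 0.43 (adjusted p = 0.0103). MYH7 fell by 3.08 ± 0.62 (adjusted p = 0.00867), MYL3 fell by 1.89 ± 0.46 (adjusted p = 0.0171) and MYL9 fell by 1.45 ± 0.21 (adjusted p = 0.00339). MYL4 gave a log2 fold change of -0.92 ± 0.63 (adjusted p = 0.281), which was 0.53 without the E16 libraries. MYH7 and MYL3 lost their calls without the E16 libraries (-1.81 and -0.90, adjusted p = 0.0704 and 0.096) and without the E28 libraries (-2.75 and -1.97, adjusted p = 0.0655 and 0.0849). MYL3 also lost its call without E16-ZZ (adjusted p = 0.0572), and without E16-DZ the changes were -1.30 for MYL3 and -2.37 for MYH7. MYH8 stood at 6.65 without E28-DZ, and MYH3 at 5.25 without E18-ZZ and 5.20 without E18-DZ. At a mitochondrial limit of 5%, MYH7, MYH8 and MYH3 stood at -1.63, 8.65 and 5.53, all still called. In whole libraries, fewer cells of a type and less RNA per cell cannot be told apart.

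Among 24 measured relatives and partners of myosin, 22 were tested, 7 rose and 3 fell, with a median change of 0.74 beside 0.0165 over all genes and 0.57 over the 8 myosins. Those that rose were MYOZ2 (6.09, a Z-disc protein), MYOM3 (4.73) of the M-band, MYLPF (4.24, the fast regulatory light chain), MYH15 (3.41), MYBPC1 (3.23, a thick filament binding protein), MYH14 (2.21, non-muscle) and the myosin chaperone UNC45B (1.05). The smooth muscle heavy chain MYH11 fell by 1.37, and the light chain kinases MYLK3 and MYLK were 3.89-fold and 2.48-fold lower (other values are log2).

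**Figure D1:**
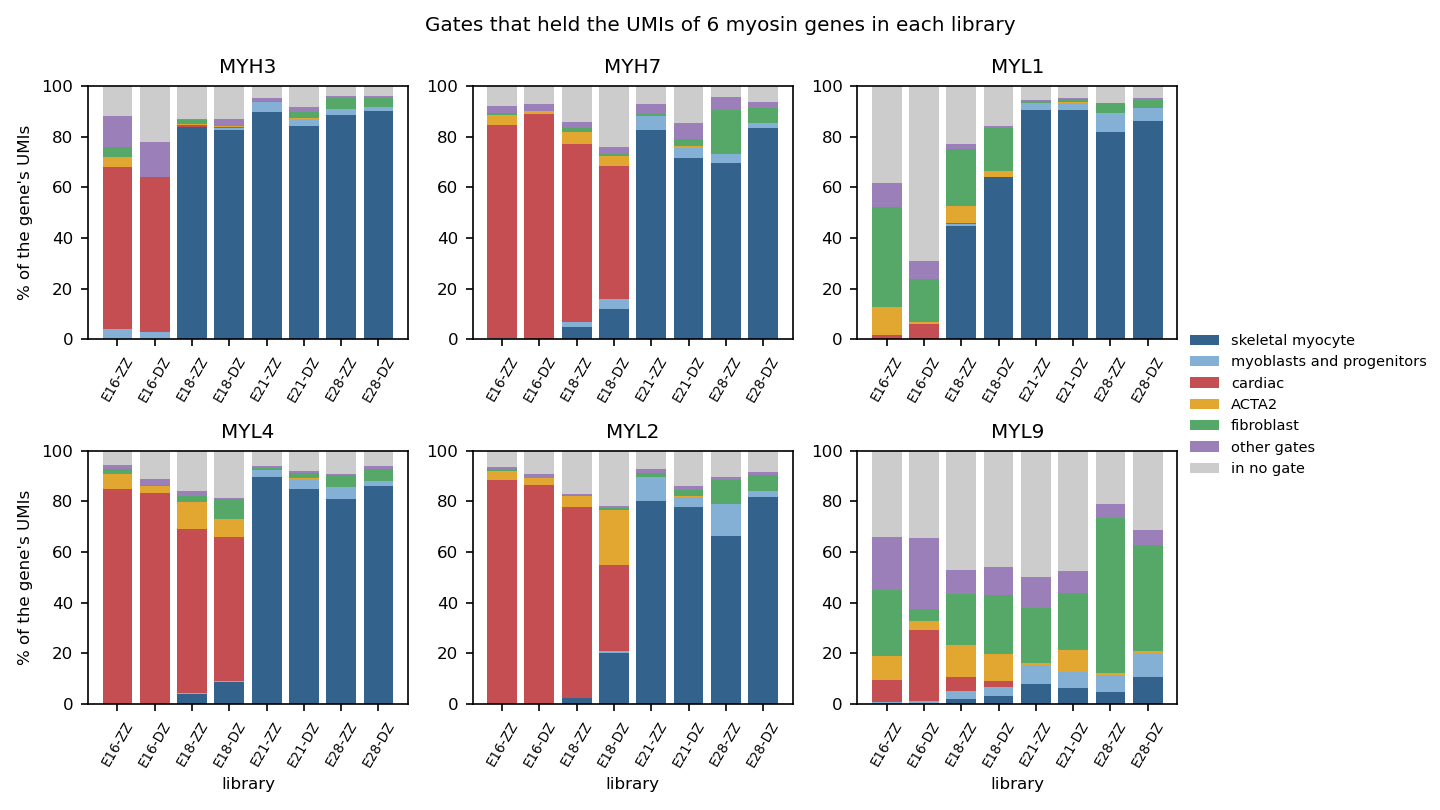
Share of each gene's UMIs (y axis, %) that lay in each gate (colour), for 6 myosin genes and the 8 libraries (x axis), with cells that passed 2 gates kept in the gate listed first. The cardiac gate held most MYH7 and MYL4 UMIs at E16 and E18 and the skeletal myocyte gate held most of them at E21 and E28, while the UMIs of MYL9 lay in many gates.

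The shares in this paragraph keep a cell that passed 2 gates in the gate listed first, as in the plot of where the UMIs lay, because 51, 116, 29 and 13 cells of the 4 early libraries passed both the cardiac and the ACTA2 gate. Cardiac cells made up 1.21% and 2.04% of the cells at E16 and held 84.1% and 88.7% of the MYH7 UMIs and 84.8% and 83.4% of the MYL4 UMIs. At E18 they were 0.581% and 0.234% of the cells with 70.1% and 52.7% of the MYH7 UMIs. From E21 on the cardiac gate was empty and skeletal myocytes, 2.33% to 7.26% of the cells, held 69.8% to 83.3% of the MYH7 UMIs and 80.9% to 89.8% of the MYL4 UMIs. The gate that held most MYH7 and MYL4 UMIs therefore differed between the early and the late libraries.

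MYH3 was rare at E16, with 25 and 72 UMIs in the whole ZZ and DZ libraries. With cells passing 2 gates kept as above, cardiac cells held 64.0% and 61.1% of these UMIs, and with such cells left out they held 3 and 17 UMIs. From E18 on, skeletal myocytes held 82.7% to 89.95% of the MYH3 UMIs with such cells kept. With such cells left out, the myocytes held 70.1% of the MYH3 UMIs of E16 and E18 together and 74.5% of those of E21 and E28. MYL1 at E16 was found mostly outside the muscle gates, with 39.6% and 16.9% of its UMIs in fibroblast-gated cells and 38.5% and 69.1% in cells of no gate. By the main gates, MYL1 in the fibroblast gate stood at 14.7, 19.98, 16.95 and 10.9 CPM in the 4 early libraries. In erythroid cells, which should lack it, MYL1 stood at no more than 0.605 CPM in those libraries. The share of fibroblast-gated cells with a MYL1 UMI was 5.15% to 10.2% at medians of 5605 to 7692.5 UMIs, against 0 to 0.51% of erythroid cells at 3796 to 10033 UMIs. The 5 markers of the skeletal myocyte gate summed to 0 to 1.51 CPM in those fibroblasts with MYOG at 0 in all 4 libraries.

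The second question was how skeletal and cardiac muscle cells divided the isoforms. Cardiac cells were led by MYH7 and MYL4 and held no MYH8 UMI, while MYH3 led the heavy chains of skeletal myocytes, and MYL9 at E18 and MYL1 from E21 on led the 5 light chains of the list there. In cardiac cells of E16-DZ and E18-ZZ, the 2 libraries with at least 20 of them, MYH7 stood at 6302 and 3953 CPM, and in the 6 skeletal myocyte sums between 70.1 and 384. MYL4 stood at 9127 and 4872 CPM in cardiac cells and at 310 to 1295 in skeletal myocytes. MYL3 stood at 412 and 146 CPM against 2.11 to 32.8. For these 3 genes the cardiac and skeletal values did not overlap.

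MYH3 stood at 47.7 and 0 CPM in the cardiac sums and at 951 to 2680 in skeletal myocytes, and MYL1 at 11.2 and 0 against 366 to 1594. MYL9, the smooth muscle and non-muscle chain, stood at 2405 and 1223 CPM in cardiac cells, above the 84.1 to 596 of skeletal myocytes. MYL2, known from slow fibres and ventricle, overlapped between the muscles, with 418 and 91.2 CPM in cardiac cells and 17.7 to 580 in skeletal myocytes. MYH8 gave 0 of 521145 cardiac UMIs, and 3 UMIs over both sums would be 5.76 CPM, so its pooled level in skeletal myocytes (554 CPM) was at least 96.2-fold higher. That pooled level rests on the E21 and E28 myocytes, since at E18, the stage that cardiac sums share, myocytes held 10.1 and 2.18 CPM of MYH8 (4 and 1 UMIs), and no such gap can be read there.

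By edgeR, 6 of the 8 myosins differed between cardiac cells and skeletal myocytes (4 higher and 2 lower in cardiac cells), against 8.29% of all genes. MYH7 was higher in cardiac cells by 4.32 ± 0.52 log2 units (adjusted p = 0.00147), MYL3 by 5.48 ± 0.77 (adjusted p = 0.0029), MYL4 by 2.86 ± 0.50 (adjusted p = 0.00817) and MYL9 by 2.85 ± 0.73 (adjusted p = 0.043). MYL1 and MYH3 differed by -7.43 ± 1.17 (adjusted p = 0.00512) and -5.97 ± 0.81 (adjusted p = 0.00248). MYL2 gave -0.30 ± 1.03 (adjusted p = 0.911), and MYH8 was not called (adjusted p = 0.144).

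These calls rest on few cardiac cells, and stage and muscle type cannot be told apart in them, since 5 of the 6 skeletal sums came from libraries without a cardiac sum. Without E16-DZ, which left 1 cardiac sum with 0 UMIs of MYH3 and MYL1, only MYH3 was called, with fitted changes of -14.32 for MYH3 and -13.70 for MYL1 that depend on the prior count. There MYH7 stood at 3.82 (adjusted p = 0.0921), MYL4 at 2.43 (adjusted p = 0.239), MYL3 at 4.87 (adjusted p = 0.189) and MYL9 at 2.30 (adjusted p = 0.449), and MYL1 was not called (adjusted p = 0.114). Without E18-ZZ, MYH3 and MYL1 stood at -5.14 and -6.82, both still called. MYL9 lost its call in 6 of the 7 fits without 1 library (all but the one without E18-DZ, where it stood at 3.59 and MYL3 at 6.34), and at a mitochondrial limit of 5%, which left 1 cardiac sum, only MYH3 and MYL1 were called, with MYH7, MYL3, MYL4 and MYL9 at 3.56, 5.59, 2.74 and 3.04. When cells passing 2 gates were kept, all 4 early libraries gave cardiac sums of 22 to 194 cells, and 7 of 8 myosins were called. MYH7 then stood at 6961, 7403, 5090 and 4370 CPM, MYL4 at 9414, 10221, 5311 and 5552 and MYL9 at 1625, 2682, 1446 and 1227. MYH8 gave 0 of 2330729 UMIs in them, while E18 myocytes held 9.0 and 1.93 CPM (4 and 1 UMIs). Within the 2 E18 libraries, where both muscles were present and library was a block, MYH7 was 3.70 ± 0.18 higher in cardiac cells (adjusted p = 1.46e-10), MYL4 4.08 ± 0.18 (adjusted p = 5.48e-11), MYL3 3.06 ± 0.40 (adjusted p = 2.35e-05), MYL2 3.46 ± 0.37 (adjusted p = 2.95e-06) and MYL9 1.28 ± 0.16 (adjusted p = 1.5e-05), a comparison added after the data were seen that leans on the spread across genes. With 1 more marker in each gate, MYL3, MYH7 and MYL9 stood at 6.67, 5.30 and 4.27.

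Of 13 relatives tested, 1 was higher and 4 lower in cardiac cells. MYLK, the smooth muscle light chain kinase, was higher by 5.61. MYLPF (-10.75), MYOZ2 (-7.07) and the non-muscle regulatory light chain MYL12A (-0.91) were lower, as was MYBPH, a thick filament protein without any UMI in the cardiac cells. The median of these 13 was -0.91, beside 1.27 over the 8 myosins and -0.0966 over all genes.

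**Figure D2:**
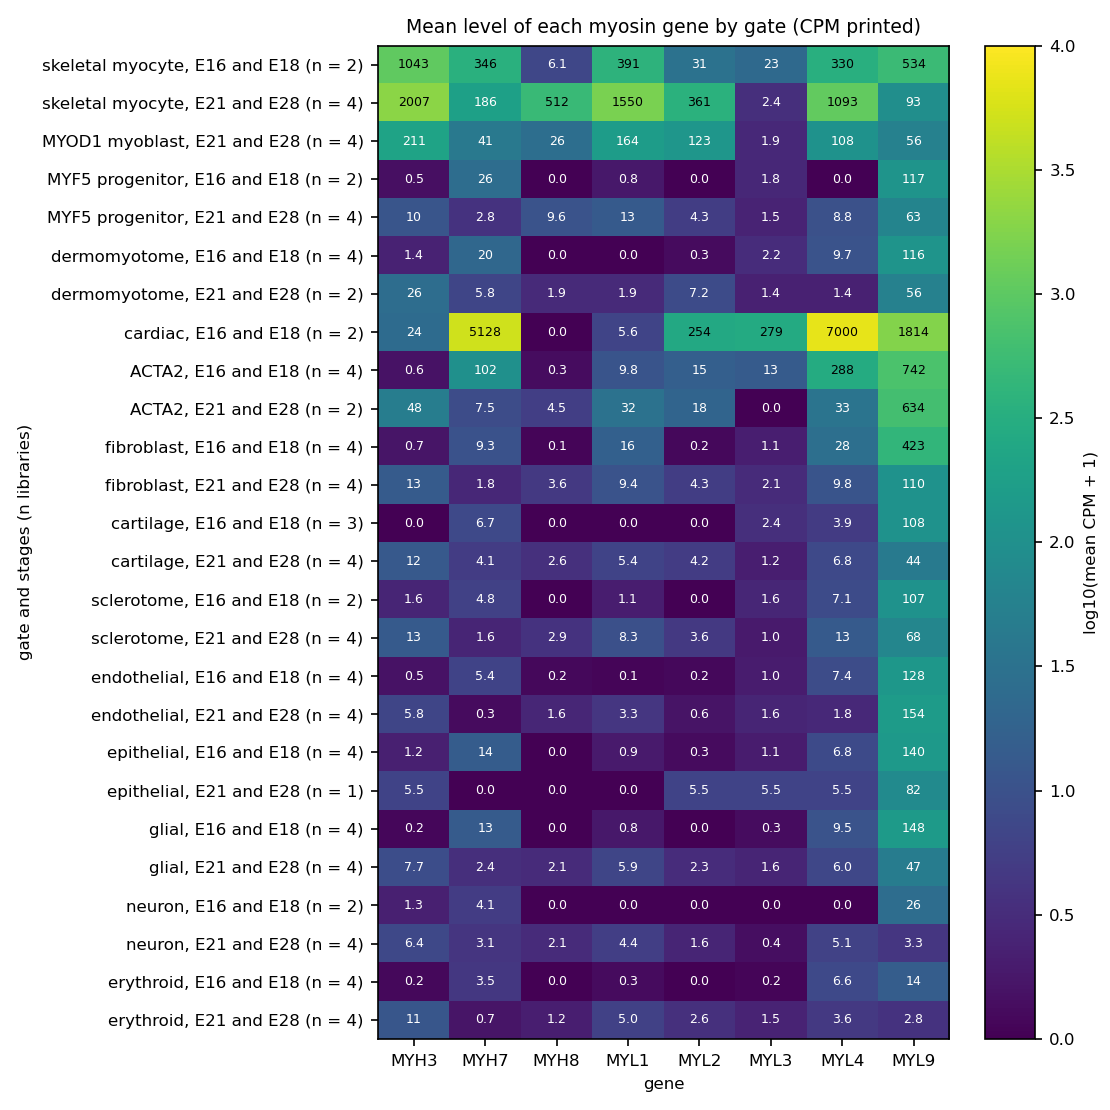
Mean level of each measured myosin gene (columns) in each gate at the early (E16 and E18) or late (E21 and E28) stages (rows, with the number of libraries that had at least 20 such cells), printed in CPM and coloured by log10(CPM + 1). MYH7 and MYL4 peak in the cardiac gate, MYH3, MYL1 and MYH8 in late skeletal myocytes, and MYL9 is present in nearly every row.

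The third question was how the isoforms changed inside skeletal myocytes, where the number of myocytes in the library does not set the level. Between E18 and E21 MYH8, MYL2, MYL1, MYL4 and MYH3 rose while MYL9 and MYL3 fell, and between E21 and E28 the heavy chains moved from MYH7 towards MYH8. In myocytes, MYH3 stood at 951 CPM (ZZ) and 1135 CPM (DZ) at E18, rising to 2680 and 1713 at E21 with 1701 and 1935 at E28. MYL1 stood at 366 and 417 CPM, then 1576 and 1548, then 1483 and 1594. MYL4 followed the same course, with 310 and 349, then 984 and 1295, then 945 and 1148 CPM. For these 3 genes both E18 libraries lay below all 4 later ones.

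MYH8 was nearly silent at E18, with 4 and 1 UMIs (10.1 and 2.18 CPM), and stood at 428 and 270 CPM at E21 and 535 and 813 at E28. MYH7 stood at 308 and 384, then 341 and 234, then 70.1 and 101 CPM, so that its drop came after E21. MYL2 stood at 17.7 and 43.7 CPM at E18, 368 and 580 at E21, then 219 and 276 at E28, with its highest values at E21. MYL9 stood at 472 and 596 CPM at E18 and at 84.1 to 102 in the 4 later libraries. MYL3 stood at 12.6 and 32.8 CPM at E18 (5 and 15 UMIs) and at 2.11 to 2.81 afterwards, the lowest of the 8 from E21 on.

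**Figure D3:**
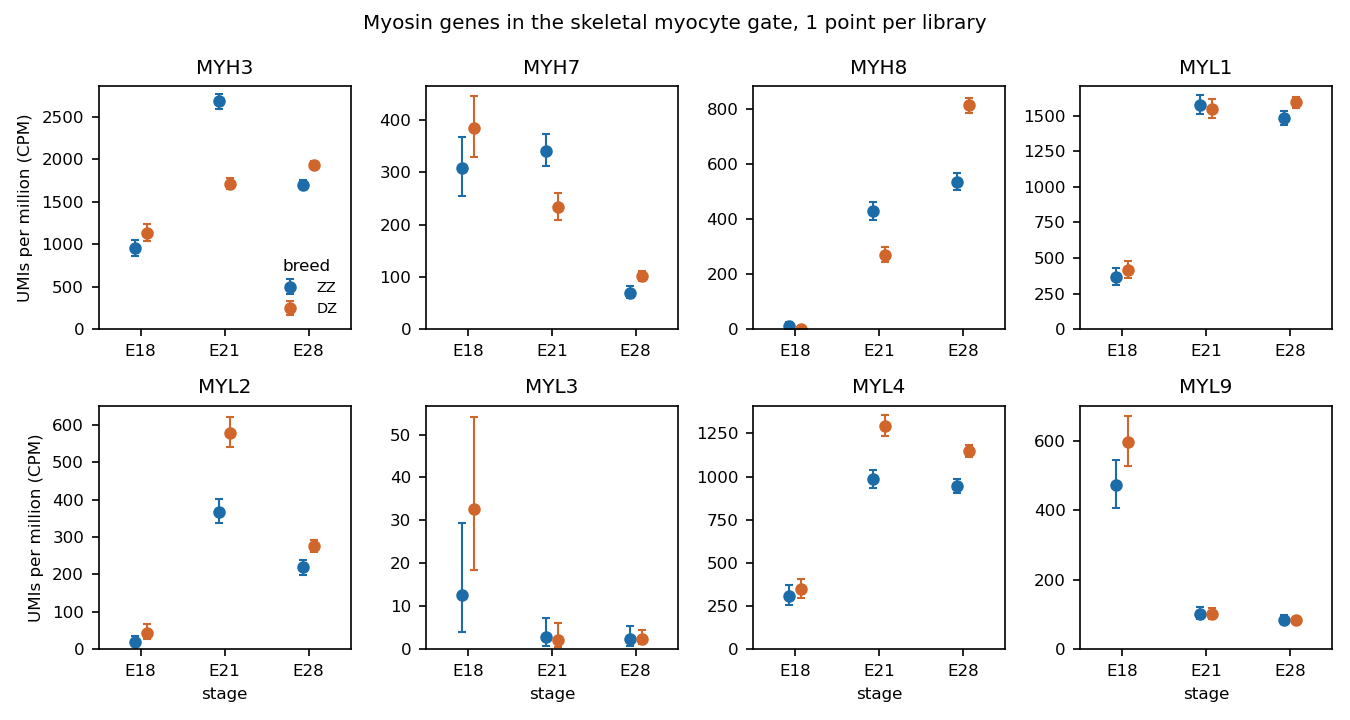
Level of each myosin gene in skeletal myocytes (y axis, CPM from 0) by stage (x axis), 1 point per library, coloured by breed, with the exact 95% Poisson interval of its UMI count. MYH8 and MYL1 lie far lower at E18 than later, MYH7 drops at E28, and MYL9 drops at E21.

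By edgeR with stage and breed as terms, 7 of the 8 myosins changed from E18 to E21 (5 up and 2 down), against 7.9% of all genes. MYH8 rose by 6.00 ± 0.46 (adjusted p = 8.99e-07), MYL2 by 4.09 ± 0.29 (adjusted p = 6.45e-07), MYL1 by 2.14 ± 0.19 (adjusted p = 4.18e-06), MYL4 by 1.93 ± 0.20 (adjusted p = 2.06e-05) and MYH3 by 1.19 ± 0.21 (adjusted p = 0.0016). MYL3 fell by 3.0 ± 0.71 (adjusted p = 0.0151) and MYL9 fell by 2.24 ± 0.20 (adjusted p = 4.13e-06). MYH7 gave -0.13 ± 0.22 (adjusted p = 0.796). With 2 libraries a stage, MYH3 lost its call without E18-ZZ (0.99, adjusted p = 0.159) and MYL3 without E18-DZ (-2.14, adjusted p = 0.416) or E21-DZ (-2.51, adjusted p = 0.203), and MYH8 moved to 7.44 without E18-ZZ and 5.21 without E18-DZ. MYL3 stood at -3.61 without E18-ZZ. At a mitochondrial limit of 5% MYH3 was not called (1.05, adjusted p = 0.181), MYH8, with 0 UMIs left in the E18 myocytes, had a fitted change of 12.16 that depends on the prior count, and with cells passing 2 gates kept MYL3 was not called (-1.58, adjusted p = 0.101).

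From E21 to E28, 3 of the 8 myosins changed, against 3.37% of all genes. MYH7 fell by 1.81 ± 0.22 (adjusted p = 0.000207), MYL2 fell by 0.98 ± 0.20 (adjusted p = 0.0127) and MYH8 rose by 0.90 ± 0.24 (adjusted p = 0.0483). MYH8 lost its call without E21-DZ (0.42, adjusted p = 0.367) or E28-DZ (0.37, adjusted p = 0.821), and MYL2 without E28-DZ (-0.64, adjusted p = 0.34). MYH8 was also not called by DESeq2, at a mitochondrial limit of 5% (0.70, adjusted p = 0.122) or with cells passing 2 gates kept (0.90, adjusted p = 0.0736). MYH3 gave -0.32 ± 0.20 (adjusted p = 0.517), which was -0.62 (adjusted p = 0.000693) without E21-DZ. MYL1 gave -0.09 ± 0.18 (adjusted p = 0.888), MYL4 -0.19 ± 0.19 (adjusted p = 0.726), MYL9 -0.34 ± 0.20 (adjusted p = 0.474) and MYL3 -0.21 ± 0.78 (adjusted p = 0.945). Tissue changed from somite to myotome in the same step.

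Of the relatives, 11 were tested in these myocytes. From E18 to E21, 4 rose and none fell: MYBPC1 (5.58), MYOZ2 (2.72), MYLPF (1.10) and the non-muscle essential light chain MYL6 (0.85). By edgeR 7 of the 11 had an unadjusted p under 0.05, as did 1845 of all 8759 genes. From E21 to E28 none rose, and MYL6 fell by 1.10 and MYBPH by 0.92. Their medians were 0.72 and -0.23, those of the 8 myosins 1.56 and -0.26, and those of all genes 0.0352 and -8.88e-05. MYLPF itself stood at 4024 to 8829 CPM in the 6 myocyte sums, above every myosin of the list, and MYL6 at 1438 to 3098.

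As shares, the make-up of the heavy chain turned over while MYH3 kept the lead. Of the UMIs of the 3 heavy chains in myocytes, MYH3 held 74.95% (ZZ) and 74.6% (DZ) at E18, 77.7% and 77.3% at E21, then 73.8% and 67.9% at E28. MYH7 held 24.3% and 25.3%, then 9.88% and 10.5%, then 3.04% and 3.54%. MYH8 held 0.795% and 0.143%, then 12.4% and 12.2%, then 23.2% and 28.5%. MYH8 thus exceeded MYH7 in both E21 and both E28 libraries and in neither E18 library. In the cardiac sums MYH7 held 99.2% and 100% of heavy chain UMIs.

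Of the UMIs of the 5 light chains of the list in myocytes, MYL9 held the most at E18 (40.0% and 41.4%) and 2.71% to 3.36% later. MYL1 held 31.0% and 29.0% at E18 and 43.9% to 54.3% later, with MYL4 at 24.3% to 37.0% in all 6 sums. Cardiac cells were led by MYL4 (73.8% and 76.9%) with MYL9 next (19.4% and 19.3%). UMIs of these 5 per UMI of the 3 heavy chains ranged from 0.88 to 1.59 in myocytes and stood at 1.95 and 1.60 in the 2 cardiac sums. These shares compare UMIs of transcripts, which a 3' assay counts once each, and not protein. MYLPF and MYL6, whose levels are given above, are outside these sums, as are MYL7 and other heavy chains.

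**Figure D4:**
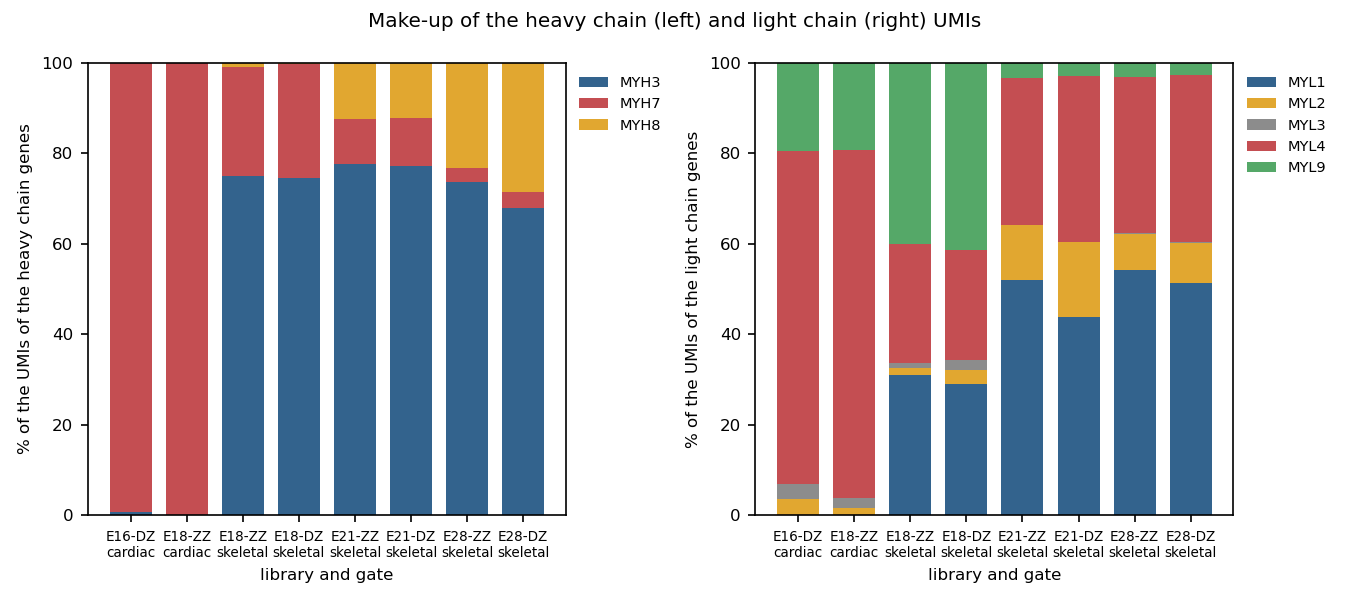
Share of each gene (y axis, %) among the UMIs of the 3 heavy chains (left) and the 5 light chains (right) in the cardiac and skeletal myocyte gates of each library (x axis). Cardiac bars are nearly all MYH7 and mostly MYL4, and in skeletal bars MYH8 grows from E18 to E28 as MYH7 shrinks.

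Myocytes differed widely among themselves. Between 27.8% and 36.2% of them held no heavy chain UMI at E18, and 54.97% to 61.3% held none at E21 and E28. Cells with MYL1 but no heavy chain were 2.13% and 2.53% of myocytes at E18, 21.8% and 24.1% at E21, then 42.5% and 44.4% at E28. MYL1 was found in 40.4% and 57.0% of myocytes at E18 and in 80.1% and 79.4% at E28, while MYH3 was found in 55.3% and 64.6% and then in 35.5% and 29.8%. Thinned to 2000 UMIs a cell, which left out 0 to 9 cells a library, MYL1 went from 29.8% and 41.1% to 60.7% and 60.9%, and MYH3 from 46.8% and 52.1% to 26.1% and 22.4%. More myocytes held MYL1 at E28 than at E18 and fewer held MYH3, while the MYH3 level of the sums was 951 and 1135 CPM at E18 and 1701 and 1935 at E28. The median myocyte held 4845 to 7702 UMIs. In endothelial cells, which should lack both genes, the share with a MYH3 UMI was at most 14.1%, at a median of 8846.5 UMIs in that library, and with a MYL1 UMI at most 5.80%, at a median of 9797 UMIs.

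The UMIs were gathered in few cells by E28. The tenth of the myocytes with the most MYH3 UMIs held 52.8% and 44.8% of them at E18, 68.9% and 68.1% at E21, then 88.4% and 93.4% at E28. For MYL4 the figures were 61.8% and 61.2%, 60.6% and 59.3%, and 85.8% and 90.7%. MYL1 was the most evenly held of these 3 at E28, with 62.8% and 69.3%. The highest count of MYH3 in 1 myocyte was 75 (ZZ) and 36 (DZ) UMIs at E18, 253 and 208 at E21, then 259 and 302 at E28. These are highest counts over unequal numbers of cells, from 47 in E18-ZZ to 746 in E28-DZ.

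MYH3, MYH7 and MYH8 were met in the same cells. Among myocytes with MYH3, MYH8 was found in 11.5% and 2.0% at E18 and in 48.8% to 58.1% at E21 and E28, and MYH7 in 61.5% to 70.6% at E18 and E21 and in 29.3% and 31.1% at E28. Cells with MYH8 but no MYH3 were 0% at E18 and 8.45% of myocytes in E28-DZ, the most of any library. E28-DZ is also flagged below for skeletal myosin in other gates. MYL2 was found in 58.3% and 57.3% of the MYH3 cells at E21 and in 26.0% and 30.2% at E28. Myocytes with MYH7 were deeper than those without, with median UMIs of 10657 against 4696 in E28-DZ, so that detection of each gene also moved with depth. In endothelial cells the share with a UMI was at most 8.61% for MYH7, 4.35% for MYH8 and 1.45% for MYL2. The part of depth or of transcripts from other cells in co-detection was not tested.

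**Figure D5:**
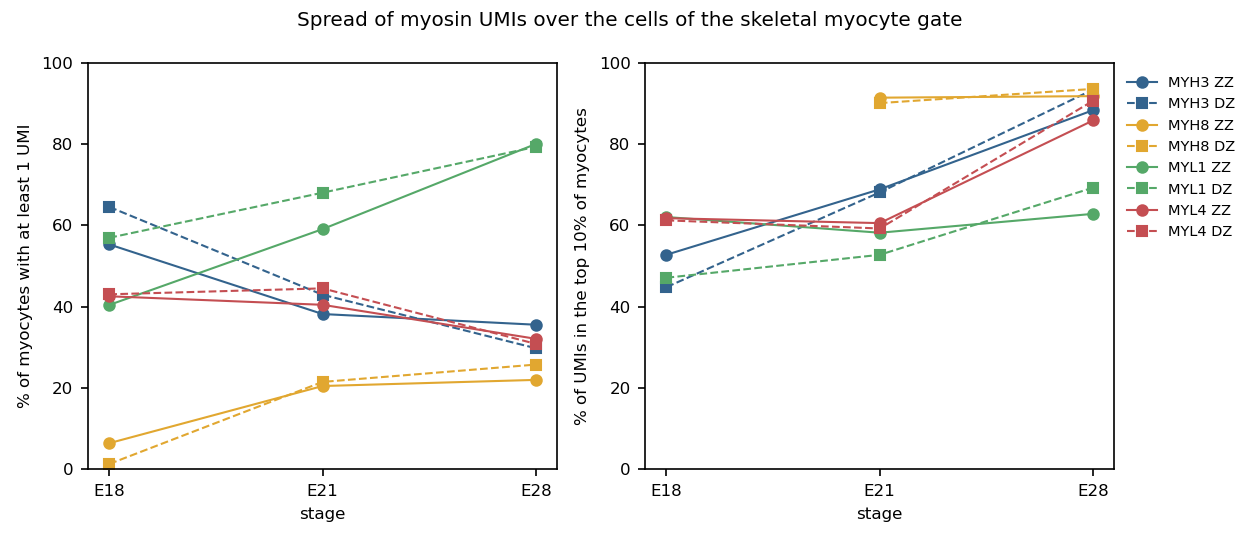
Share of skeletal myocytes with at least 1 UMI of a gene (left, y axis in %) and share of the gene's UMIs in the 10% of myocytes that held the most (right, y axis in %), by stage (x axis), with solid lines for ZZ and dashed lines for DZ. Points under 50 UMIs are left out on the right, and MYH3 falls on the left while it climbs on the right.

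The fourth question was at which step of the skeletal lineage each gene came on. MYH3, MYL1, MYL2 and MYL4 were low in PAX3 dermomyotome and MYF5 progenitor cells, partly on in MYOD1 myoblasts and high in myocytes, MYL9 was found in all 4 gates, and MYL3 was not among the 7 myosins tested. The 20 sums of these 4 gates were fitted together with library as a block. Dermomyotome sums came from E18 and E21, MYOD1 myoblast sums from E21 and E28, and sums of the other gates from E18, E21 and E28. The E18 myocytes thus had no myoblast sum from their own libraries, and the order of the steps was not seen at that stage. MYL1 stood at 0 to 3.89 CPM in dermomyotome, at 0 to 30.9 in MYF5 progenitors and at 130 to 209 in MYOD1 myoblasts. MYH3 stood at 0 to 46.6 CPM in dermomyotome, 0 to 20.4 in MYF5 progenitors and 42.9 to 596 in MYOD1 myoblasts.

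From dermomyotome to MYF5 progenitors, 0 of 7 myosins tested were called by edgeR and 0 by DESeq2, with 0.165% of all genes called by edgeR. MYL1 alone had an unadjusted edgeR p under 0.05, as did 650 of all 9707 genes. MYL1 gave 3.70 ± 1.28 (adjusted p = 0.498). From MYF5 progenitors to MYOD1 myoblasts, 4 of 7 were called and all 4 rose, against 1.55% of all genes called in either direction (126 up and 24 down). They were MYL2 (4.16 ± 0.64, adjusted p = 0.000421), MYH3 (3.69 ± 0.57, adjusted p = 0.000393), MYL1 (3.56 ± 0.32, adjusted p = 2.45e-07) and MYL4 (3.21 ± 0.52, adjusted p = 0.000644). MYH7 (1.77 ± 0.67, adjusted p = 0.309), MYH8 (1.15 ± 0.37, adjusted p = 0.165) and MYL9 (0.08 ± 0.27, adjusted p = 0.995) were not called. Without E21-ZZ the changes of MYL2 and MYH3 were 3.32 and 2.67, without E21-DZ that of MYL4 was 2.53, and without E28-DZ those of MYL2, MYL1, MYL4 and MYH3 were 5.19, 4.86, 4.63 and 5.06, all still called. At a mitochondrial limit of 5% the change of MYH3 was 1.65.

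From MYOD1 myoblasts to myocytes all 7 tested myosins rose, against 28.9% of all genes called in either direction (1551 up and 1250 down). MYH8 rose by 4.79 ± 0.27 (adjusted p = 2.62e-11), MYH3 by 4.23 ± 0.46 (adjusted p = 2.5e-07), MYL4 by 4.00 ± 0.38 (adjusted p = 4.12e-08), MYL1 by 3.604 ± 0.26 (adjusted p = 4.91e-10) and MYH7 by 3.25 ± 0.44 (adjusted p = 5.37e-06). MYL2 rose by 2.49 ± 0.39 (adjusted p = 3.48e-05) and MYL9 by 1.38 ± 0.25 (adjusted p = 0.000228). MYL1, MYL2, MYL4 and MYH3 were thus called at both steps, and the difference between the steps was not tested. MYH7 and MYH8 were also called at the step from MYF5 progenitors to MYOD1 myoblasts with 1 more marker in each gate and with no filter on low counts, and MYH8 without E28-DZ. Without E21-ZZ, MYH7, MYH3 and MYL2 stood at 4.56, 5.05 and 3.30, and without E28-DZ MYH7, MYL4 and MYL2 at 2.64, 3.34 and 1.75, all still called. With 1 more marker in each gate the 6 changes other than that of MYL9 were 1.90 to 2.70, beside 5.19, 5.32, 5.59 and 5.98 for MYL2, MYL1, MYL4 and MYH3 at the step before, and at a mitochondrial limit of 5% those of MYH7, MYH3 and MYL2 were 5.54, 5.92 and 3.33. The scaling by library totals kept these 7 calls although it moved the median of all genes to -0.248. The myocyte and myoblast gates share markers of one lineage, and a cell that passed both was counted on the myocyte side. The setting with 1 more marker applied to gates that asked for more than 1. A MYOD1 cell with only 2 of the myocyte markers then left the myocyte gate and could be counted as a myoblast. That setting therefore need not make the myoblast gate stricter.

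Of 12 relatives tested by edgeR, 0 were called at the first step, 6 rose at the second and 10 at the third. At the first step 6 had an unadjusted p under 0.05, as did 650 of all 9707 genes. At the second step they were MYOZ2 (4.14), MYBPH (3.35), MYLPF (3.13), the methyltransferase SMYD1 (2.65), UNC45B (2.29) and MYOM1 (2.24). At the third step these 6 rose again by 3.28 to 4.83, joined by MYOM3 (4.51), MYBPC1 (4.27), MYL6 (1.05) and MYL12A (0.97). Beside their medians of 0.99, 2.04 and 3.61 the myosins had medians of 0.45, 3.21 and 3.604, and all genes had medians of 0.000543, -0.00246 and 0.0006.

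The fifth question was where MYL9 lies, since it marks smooth muscle and non-muscle cells. MYL9 was in nearly every gate, and cardiac cells held its highest levels. In the ACTA2 gate (ACTA2, TAGLN and CNN1 all detected) it stood at 471, 478, 1007 and 1010 CPM in the 4 early libraries, 939 in E21-DZ and 328 in E28-DZ. In fibroblasts it stood at 482, 348, 411 and 453 CPM early and at 87.9, 78.8, 140 and 133.9 late. Dermomyotome cells had 112 to 120 CPM early and 49.2 and 62.2 at E21, and endothelial cells 62.7 to 244 in the 8 libraries. Erythroid cells, as a low reference, had 0 to 15.9 CPM and neurons 2.10 to 34.3. The late values were below the early ones without overlap in myocytes, fibroblasts and dermomyotome, whereas the endothelial values overlapped.

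Against fibroblasts of the same 6 libraries, the ACTA2 gate had 4 of 8 myosins called and all 4 higher, against 0.834% of all genes called in either direction (66 up and 19 down). They were MYH7 (3.50 ± 0.22, adjusted p = 1.58e-07), MYL2 (3.43 ± 0.57, adjusted p = 0.00625), MYL4 (3.04 ± 0.27, adjusted p = 1.51e-05) and MYL3 (2.65 ± 0.52, adjusted p = 0.0206), chains known from heart and from slow or embryonic muscle. MYL9 gave 1.18 ± 0.31 (adjusted p = 0.109), and was called without E16-ZZ (1.47, adjusted p = 0.0418) or E16-DZ (1.37, adjusted p = 0.0145), with doublets kept (1.23, adjusted p = 0.0245) and with no filter on low counts, while it stood at 0.75 without E21-DZ and 0.68 with at least 50 cells a sum, and its highest adjusted p was 0.366, by DESeq2. MYL3 lost its call without E16-ZZ (2.30, adjusted p = 0.163), E18-ZZ (2.81, adjusted p = 0.0572) or E18-DZ (2.58, adjusted p = 0.13), and MYL2 without E18-DZ (2.93, adjusted p = 0.0565). MYL2 stood at 5.53 with at least 50 cells a sum. MYL4 stood at 205, 542, 265 and 139 CPM in early ACTA2 cells and at 14.9 to 45.3 in early fibroblasts. In the late ACTA2 sums, E21-DZ and E28-DZ, MYL4 had 13 and 3 UMIs (38.9 and 27.3 CPM) and MYL2 had 3 and 3. MYH7 had 5 and 0 UMIs there and MYL3 had none, so these calls do not describe each of the 6 libraries. The 6 measured markers of the cardiac gate summed to 122 to 759 CPM in early ACTA2 cells, where TNNI3 was at 0 in E16-DZ, and to 14.6 to 69.9 CPM in early fibroblasts. They summed to 13091 and 6253 CPM in the 2 cardiac sums. In the 6 skeletal myocyte sums they summed to 611 to 1118 CPM with TBX20 at 0, so the sum is not particular to cardiac cells. In late ACTA2 cells they summed to 23.9 and 9.11 CPM, with MYBPC3, NKX2-5 and TBX20 at 0. The part of such transcripts in the result was not tested. Of 8 relatives tested, MYOM1 (3.03), UNC45B (2.70) and MYLK (2.21) were higher and none was lower, with a median of 1.54 beside 2.01 over the 8 myosins and -0.0148 over all genes.

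Breed was compared with stage as a block. In whole libraries none of the 8 myosins differed between DZ and ZZ by edgeR, none had an unadjusted p under 0.05, and DESeq2 called none. Over all genes 0.0% were called, and 915 of 15119 had an unadjusted p under 0.05. The largest differences were those of MYL4 (0.51 ± 0.30, adjusted p = 0.814) and MYH3 (0.50 ± 0.26, adjusted p = 0.81). In skeletal myocytes 0 of 8 were called, against 0.126% of all genes, and 2 had an unadjusted p under 0.05, as did 445 of all 8759 genes. The 2 were MYL2 (0.64 ± 0.19, adjusted p = 0.53), higher in DZ in all 3 stages, and MYL4 (0.34 ± 0.16, adjusted p = 0.971), also higher in DZ in all 3. DESeq2 called 0 there as well. The difference of the breed effect between early and late libraries was tested as an interaction, and 0 of the 8 were called (0 of 15119 genes, 124 at an unadjusted p under 0.05).

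Across all 86 sums of a gate in a library, each myosin was compared with 7972 other genes by the Pearson correlation of log2(CPM + 1), as a description, since sums of the same library share its depth and free RNA. Genes used in the gates, such as TNNT2 and MYOG, and genes with a mean under 10 CPM were not compared. MYH3 was most like TNNC2 (0.94), MYLPF (0.92) and the muscle phosphoglycerate mutase PGAM2 (0.91). MYH8 was most like PGAM2 (0.87), MYOZ2 (0.86) and MYH3 (0.85), and MYL1 like MYBPH (0.87), TNNC2 (0.86) and MYLPF (0.85).

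MYH7 was most like TCAP (0.80, titin cap), CSRP3 (0.78, a muscle LIM protein) and SRPK3 (0.77), and MYL3 like MYH7 (0.65), CSRP3 (0.65) and the natriuretic peptide gene NPPB (0.64). MYL4 was most like TNNC1 (0.91, slow and cardiac troponin C), CSRP3 (0.86) and MYOM1 (0.84), and MYL2 like TNNI1 (0.88), CSRP3 (0.87) and ACTC1 (0.87). MYL9 was most like FLNA (0.85), CNN2 (0.83) and ACTN1 (0.83), which bind actin in many cell types, and among the members it had 0.57 with MYH7, 0.51 with MYL3 and 0.495 with MYL4, 0.18 and 0.23 with MYL1 and MYL2, and -0.01 and -0.04 with MYH3 and MYH8. Among the members MYH3, MYH8 and MYL1 had 0.85 in each pair, and MYH7 had 0.75 with MYL4 against 0.29 with MYH3.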

How the data were processed

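The authors deposited raw UMI counts per gene and cell for 8 libraries, made with Cell Ranger on a pig genome. The version, read from the header of each count matrix, was 3.1.0 for E16 and 3.0.2 for the other 6. The files held 10373 to 12335 barcodes and 50110370 to 71091640 UMIs per library. Cells with at least 200 genes, at most 30000 UMIs and at most 10% of UMIs from 13 mitochondrial genes were kept. The 8247 barcodes scored highest by Scrublet (scanpy 1.11.5), 0.8% per 1000 barcodes, were removed as doublets, which left 74147 cells of 90688.

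Cells were assigned to 15 gates, and 5 of the gate markers (among them NPPA) were not used here. Counts were summed per gate and library (at least 20 cells) and tested with edgeR 4.0.16 (quasi-likelihood, TMM, filterByExpr, Benjamini-Hochberg over all genes tested), with libraries as replicates and DESeq2 1.42.0 as an alternative, in R 4.3.3. Levels are CPM without TMM. Intervals (95%, exact Poisson or binomial) and floors (3 counts) cover counting error only. Every myosin of the list was named, as were relatives that passed at 0.05 (at most 10 a comparison) and the 3 most correlated of the genes compared. The fits were tested on simulated data. Alternatives changed the scaling, filters, doublets, gates, minimum cells and libraries. The members, gates and gene lists were chosen with earlier results of these data known. Sequences were compared with Biopython 1.88 on RefSeq Sscrofa11.1.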

Additional observations from a re-analysis of the deposited data

Results flagged for a closer look

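Of 72 groups of 4 libraries checked (a myosin in a gate, early or late), 9 held a library whose gap to its nearest neighbour was large against the range of the group. The limit used marks about 1 in 20 groups of 4 values drawn from a single normal population. These groups mix stages and breeds, and some rest on few UMIs, so that rate need not hold here. All values are CPM. In the DZ library of E28, MYL4 stood at 161 in the whole library, against 42.5 to 62.6 in the other 3 late libraries. Fibroblasts of that library also held more skeletal myosin than those of the other late libraries, with MYH3 at 28.7 against 4.95 to 8.99 and MYH8 at 10.8 against 0.549 to 2.21. The same held in its MYF5 progenitors, where MYH8 stood at 31.3 against 0.652 to 5.36 and MYL4 at 16.4 against 5.72 to 7.15. Skeletal myocytes were 6.81% of the cells of this library by the main gates, the most of any, and the 5 markers of that gate summed to 12.2 CPM in its fibroblasts against 3.95 to 5.38 in the other 3. Whether transcripts of myocytes reached the other gates was not tested.

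In the ZZ library of E21, MYOD1 myoblasts had MYH3 at 596 against 42.9 to 135 and MYH7 at 136 against 1.39 to 24.0 in the other 3 late libraries. MYH7 was at 1.18 in endothelial cells of this library, which is 1 UMI, and at 0 in the other 3. MYL3 in early fibroblasts was at 2.26 in E18-ZZ against 0.666 to 0.821 in the other 3, which are low counts.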

How the results depend on the processing

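Each of the 10 comparisons was repeated under other settings, and of 759 values for 48 myosin changes (those called and some that were not) 707 kept their direction and their side of the threshold, 37 lost a call, 5 gained one and 10 reversed. Outside that count, MYH8 gained a call between cardiac cells and myocytes under 5 settings and MYL2 with the library block. Of the 8 myosins, the count called between cardiac cells and skeletal myocytes was 2 at a mitochondrial limit of 5% and 1 to 7 with 1 library left out. Leaving out 1 library gave 1 to 3 calls for E28 against E21 and 2 to 5 for ACTA2 cells against fibroblasts, and 1 myosin (MYL1) was called between MYF5 progenitors and dermomyotome with no filter on low counts. The reversed values were of uncalled changes: MYL4 late against early stood at 0.53 without the E16 libraries, MYH7 from E18 to E21 at 0.037 with cells passing 2 gates kept and at -0.50 to 0.23 with 1 library left out, and MYL2 between the breeds in myocytes at -0.045 with 1 more marker. From E21 to E28, MYL1, MYL4 and MYH3 stood at 0.12, 0.22 and 0.15 with 1 more marker, and MYH3 at -0.62 to 0.014 and MYL4 at -0.37 to 0.020 with 1 library left out. The cause was not tested. Mean heavy chain shares moved past the spread of their 2 libraries for MYH3 at E18 (74.1% with doublets kept, 74.2% with cells of 2 gates kept), MYH7 at E18 (25.5% with doublets kept), MYH3 at E21 (76.7% with 1 more marker), MYH7 at E21 (9.47% at the 5% limit, 11.12% with cells of 2 gates kept) and MYH8 at E21 (12.9% at the 5% limit, 13.1% with 1 more marker, 11.7% with cells of 2 gates kept). With library totals in place of TMM, the median of all genes moved to 0.20 late against early (3073 genes up and 1576 down against 2449 and 2596), to -0.10 from E18 to E21 and to -0.25 from myoblasts to myocytes (886 up and 2561 down against 1551 and 1250), and the same myosins were called in all 10 comparisons. Between cardiac cells and myocytes the library block could not be fitted with the main gates, nor could E21 against E18 and ACTA2 cells against fibroblasts with 1 more marker. No paired analysis was possible by replicate number because each breed and stage had 1 library, and library or stage served as the block where stated. Few cardiac cells and low MYL3 and early MYH8 counts limit the precision.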
